A study of Oryza sativa with 12 samples.

Results

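Stressed leaves of the rice varieties QJ10 (QJ) and LJ31 (LJ) were compared, with 3 RNA sequencing libraries of each variety. The stress was a bicarbonate salt-alkali treatment, given as 200 mmol/L in the series record. The deposited table for this pair of groups lists 6894 of the 13674 genes that appear in any of the series' 4 tables, 2785 of them with a name. It holds only genes the authors had already selected as different between these same 6 libraries, so every listed gene was a member and no gene without a difference could be seen. The series holds 12 libraries in all. The other 6 are control (CK) leaves of the same varieties and serve below as libraries on which the selection did not rest. The series record calls the 3 libraries of a group biological replicates. The sources used here do not give plant age, the length of the stress or whether plants were pooled, and name no transgene. The 4 groups were thus stressed QJ, stressed LJ, control QJ and control LJ leaves, with total RNA as the source. Which variety a column belongs to was taken from its header. The name of the table used here matches its headers. The headers of the 2 tables that compare stress with control, used here for some control values, go against those tables' names. If the headers of all tables were exchanged between the varieties, every direction and every share of higher or lower genes given here would turn, and the values cannot settle this.

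Bicarbonate salts load a plant with sodium and also raise the pH around the root, where iron and phosphate become hard to take up. Rice leaves are known to answer such stress through abscisic acid and jasmonate signalling, through transcription factors of the WRKY, NAC, ERF and MYB families, through protective proteins such as LEA proteins and metallothioneins, and through transporters that move sodium and potassium. Photosynthesis genes are commonly lowered as leaves age or are damaged, while genes of defence against pathogens often move with jasmonate and calcium signals.

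Most listed genes were lower in QJ. Values are FPKM, an abundance corrected for transcript length and for library size, and differences are QJ minus LJ on the log2(FPKM + 1) scale, where the added 1 makes differences of low genes smaller. Of the listed genes, 5662 reached 1 FPKM in at least 3 libraries and were tested, and 1232 did not. In limma with Benjamini-Hochberg adjustment 3705 genes (65.4% of those tested) were lower in QJ at an adjusted p under 0.05, 1924 (34.0%) were higher and 33 did not pass. The groups did not overlap in 5604 genes (99.0%). Since 99.4% of tested genes passed in a table selected on the same libraries, passing says little about a member, and a family's count is read here against the 65.4% of all tested genes that were lower. The median difference was -0.82 over all tested genes, 1.46 over those higher and -1.23 over those lower. Differences past 2 on the log2 scale were found in 399 genes higher and 785 lower in QJ, and differences past 5 in 21 higher and 8 lower.

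The share of genes lower in QJ differed with expression level. It was 62.9% of 1664 genes whose higher variety averaged 1 to 5 FPKM, 56.1% of 1593 genes at 5 to 20 FPKM and 68.3% of 1501 genes at 20 to 100 FPKM. It was 80.8% of 717 genes at 100 to 500 FPKM and 86.6% of 187 genes at 500 FPKM or more. Listed values summed to 223846 to 225200 FPKM in the stressed QJ libraries and 404031 to 405210 FPKM in the stressed LJ libraries. Only listed genes enter these sums. Sequencing depth is unknown, so no counting interval can be given. Libraries of a group lay close together, with a median coefficient of variation of 17.2% in QJ and 17.3% in LJ for genes averaging 1 to 3 FPKM and of 2.12% and 1.53% for genes at 300 FPKM or more. The p-values measure only this spread, and whether it includes differences between plants cannot be told apart. FPKM ratios were shifted by a median of 0.354 on the log2 scale toward QJ from the authors' own fold changes. The authors' cut at a log2 fold change of 1 therefore let smaller FPKM differences in on the lower side than on the higher side. The share of 65.4% lower and the median of -0.82 carry this unequal cut. With a threshold of 1 on the FPKM scale, 1870 genes passed as lower in QJ and 1305 as higher. By the authors' own fold changes 4684 listed genes were lower and 2210 higher. Under the authors' scaling 5 genes change direction, none of them named below.

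**Figure D1:**
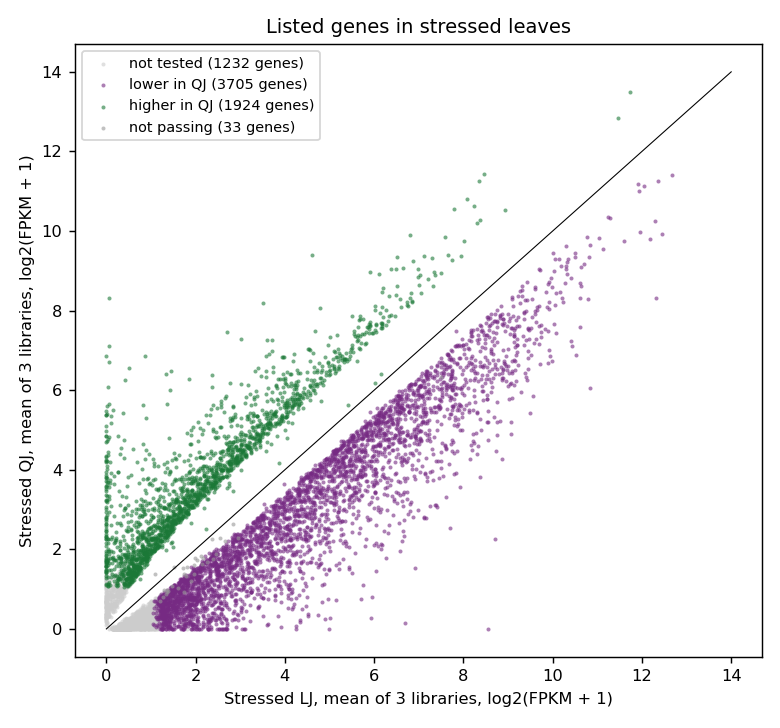
Mean level of each listed gene in stressed LJ (horizontal axis) and stressed QJ (vertical axis), both as log2(FPKM + 1), 1 point per gene and 3 libraries per mean. Of the tested genes, the 3705 lower in QJ lie below the diagonal and the 1924 higher in QJ above it. The 33 genes not passing and the 1232 not tested are also drawn. Away from low levels, the band left empty along the diagonal is where the authors' selection removed genes.

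The largest differences toward LJ included an oxalate oxidase, a lipid transfer protein and metallothioneins. OsOxO3 (Os03g0693900), an oxalate oxidase, which breaks down oxalate and releases hydrogen peroxide, was at 3.26, 3.94 and 4.16 FPKM in the stressed QJ libraries and 408, 419 and 415 FPKM in the stressed LJ libraries. Each LJ library stood far above each QJ library, and the means differed 109-fold (log2 difference -6.44, SE 0.0702, adjusted p = 8.42e-11). OsLTP1.9 (Os11g0115100), a lipid transfer protein, read 0.16, 0.16 and 0 FPKM in QJ and 101, 94.5 and 113 FPKM in LJ (log2 difference -6.55, SE 0.0995, adjusted p = 3.09e-10). It was close to 0 in all 3 QJ libraries. OsMT1c (Os12g0568200) and OsMT1g (Os12g0571000) belong to the metallothioneins, small proteins that bind metals. OsMT1c was at 0.21, 0 and 0.42 FPKM in QJ against 58.5, 61.5 and 60.5 FPKM in LJ, and OsMT1g at 0.31, 0 and 0.31 against 31.7, 34.5 and 27.4 FPKM. Both were well under 1 FPKM in every QJ library. Sci1 (Os12g0437800) stood at a higher level in both varieties, with 63.9, 71 and 60.2 FPKM in QJ and 1833, 1800.0 and 1811 FPKM in LJ, a 27.9-fold difference (log2 difference -4.78, SE 0.0538, adjusted p = 9.26e-11). OsGLYI5 (Os04g0538900), of the glyoxalase I family, which detoxifies methylglyoxal, was 46.3-fold lower in QJ (1.15 ± 0.402 against 53.1 ± 2.35 FPKM, mean ± SD, n = 3 libraries per group here and below). OsCHX15 (Os12g0616500), of the cation/proton exchanger family, was 32.2-fold lower (2.92 ± 0.0964 against 94 ± 2.83 FPKM). The uclacyanin-like OsUCL35 (Os11g0428800) averaged 0.757 ± 0.159 FPKM in QJ and 61.3 ± 3.55 FPKM in LJ, and the lipid transfer protein OsLTP2.9 (Os10g0504900) 1.72 ± 0.36 and 64.6 ± 2.43 FPKM.

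The largest differences toward QJ included a wall-associated kinase, a pathogenesis-related protein and a pair of class III peroxidases. OsWAK123 (Os11g0694100), a receptor-like kinase that spans the membrane to the cell wall, was at 45.8, 49.4 and 46.5 FPKM in QJ and 0.04, 0 and 0 FPKM in LJ (log2 difference 5.57, SE 0.0828, adjusted p = 2.81e-10). In LJ only 1 library of 3 had any value above 0. OsPR1b (Os01g0382000), of the PR1 family of pathogenesis-related proteins, read 87.8, 85.9 and 91.9 FPKM in QJ and 1.37, 1.94 and 1.82 FPKM in LJ, 51.8-fold higher in QJ (log2 difference 5.05, SE 0.0904, adjusted p = 6.76e-10). A different gene under the same name, OsPR1b (Os07g0125000), was lower in QJ (0.0833 ± 0.0231 against 2.84 ± 0.592 FPKM). The peroxidase POX22.3 (Os07g0677200) was the most abundant of the group, with 685, 670.5 and 679 FPKM in QJ against 20.4, 24.3 and 25.8 FPKM in LJ, 28.9-fold higher (log2 difference 4.80, SE 0.0756, adjusted p = 3.56e-10). Its lowest QJ library was far above its highest LJ library. The peroxidase prx29 (Os02g0240300) averaged 48.1 ± 2.64 FPKM in QJ and 0.77 ± 0.07 FPKM in LJ. RD22 (Os10g0409400), named after a dehydration-responsive gene of Arabidopsis, was at 290.0, 288 and 291 FPKM in QJ and 11, 10.4 and 9.66 FPKM in LJ, a 28-fold difference (log2 difference 4.68, SE 0.0475, adjusted p = 7.02e-11). SAUR39 (Os09g0545300), which in rice lowers auxin synthesis and transport, was 31.6-fold higher in QJ (175 ± 11.4 against 5.53 ± 0.427 FPKM). FAAH (Os04g0102700), a fatty acid amide hydrolase, averaged 27.7 ± 1.39 FPKM in QJ and was listed at 0 in all 3 LJ libraries. The receptor-like cytoplasmic kinase OsRLCK353 (Os11g0691280) averaged 25.5 ± 2.15 FPKM in QJ and 0.01 ± 0.0173 FPKM in LJ.

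Of 45 gene families or pathways with at least 5 tested members, 38 had more members lower than higher in QJ, 5 had more higher and 2 were even. Since 65.4% of all tested genes were lower, most lists would have more lower members for that reason alone. The count of lists therefore does not set families apart from the listed genes as a whole. In 7 lists every tested member was lower. The larger side of each list was the same under the authors' scaling, and under median centring it changed in 1 list, cyclins, replication and histone genes, where it went from even to 1 more higher. The transcription factor families below are given by their counts, with no test of a family as a whole. Of 41 WRKY factors tested, 40 were lower and 1 higher (median difference -1.79, against -0.82 for all tested genes). The 3 WRKY genes with the highest levels were WRKY71 (Os02g0181300), which is known to act in defence and hormone signalling, WRKY53 (Os05g0343400), known to promote resistance to blast fungus, and WRKY76 (Os09g0417600), known to repress it. WRKY71 read 318, 313 and 327 FPKM in QJ and 1180.4, 1198 and 1176 FPKM in LJ, 3.71-fold lower in QJ (log2 difference -1.89, SE 0.0224, adjusted p = 1.04e-10). WRKY53 was 2.97-fold lower (272 ± 10.8 against 807 ± 10.2 FPKM) and WRKY76 3.68-fold lower (189 ± 1.12 against 696 ± 5.96 FPKM). The WRKY values summed over the list ranged from 1823 to 1892 FPKM across the QJ libraries and from 7326 to 7376 FPKM across the LJ libraries.

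NAC factors counted 30 lower and 3 higher in 33 tested (median -1.34). SNAC1 (Os03g0815100), whose overexpression is known to raise drought and salt tolerance of rice, read 357, 357 and 352 FPKM in QJ and 910.1, 914 and 928 FPKM in LJ (log2 difference -1.36, SE 0.0186, adjusted p = 1.96e-10). The LJ libraries were all above the QJ libraries, 2.58-fold by the means. OsNAC6 (Os01g0884300), another NAC factor of stress tolerance, was 2.91-fold lower in QJ (549.5 ± 17.6 against 1599.5 ± 9.64 FPKM), and ONAC039 (Os03g0327100) 4.38-fold lower (94.9 ± 2.87 against 416 ± 4.66 FPKM). Among ethylene-response and DREB factors 37 of 43 were lower and 6 higher (median -1.24). The most abundant, OsERF#074 (Os05g0497300), was 1.95-fold lower (240.4 ± 10.8 against 469 ± 12.4 FPKM), whereas OsERF#133 (Os09g0522100) was nearly silent in QJ, at 0, 0.28 and 0.28 FPKM, and at 29.2, 31 and 26.2 FPKM in LJ. All 3 QJ values of OsERF#133 were under 1 FPKM.

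MYB and bHLH factors were split close to the background share. Of 20 MYB factors 12 were lower and 8 higher, and of 23 bHLH factors 15 were lower and 8 higher. The members with the highest levels were nevertheless lower in QJ. OsMYB2 (Os03g0315400), known to promote tolerance of salt, cold and drought, read 14.6, 14.8 and 13.9 FPKM in QJ and 151, 148 and 155 FPKM in LJ, 10.5-fold apart (log2 difference -3.31, SE 0.0396, adjusted p = 1.09e-10). OsMyb4 (Os04g0517100), known from cold tolerance, was 5.28-fold lower in QJ (145 ± 3.91 against 764 ± 18.7 FPKM). OsbHLH148 (Os03g0741100), a jasmonate-responsive factor that interacts with JAZ repressors, read 156, 144 and 145 FPKM in QJ and 1352, 1319 and 1379 FPKM in LJ, 9.09-fold apart (log2 difference -3.18, SE 0.0354, adjusted p = 9.01e-11). Its groups did not approach each other. VQ-motif proteins, cofactors of WRKY factors, were lower in 18 of 19, with OsVQ13 (Os03g0676400) 5.94-fold lower (67 ± 0.605 against 397 ± 4.83 FPKM). Of 9 heat stress factors 8 were lower, among them HSFB1 (Os09g0456800) (61.3 ± 1.22 against 150.1 ± 1.41 FPKM), and the exception was OsHsfC1b (Os01g0733200), 2.6-fold higher in QJ (55.8 ± 2.52 against 21.4 ± 1.18 FPKM). Heat shock proteins and J-domain co-chaperones were lower in 15 and higher in 5 of 20, and the Hsp70 gene OsHsp71.1 (Os03g0276500) was 2.27-fold lower (553 ± 11.9 against 1254 ± 22.1 FPKM).

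**Figure D2:**
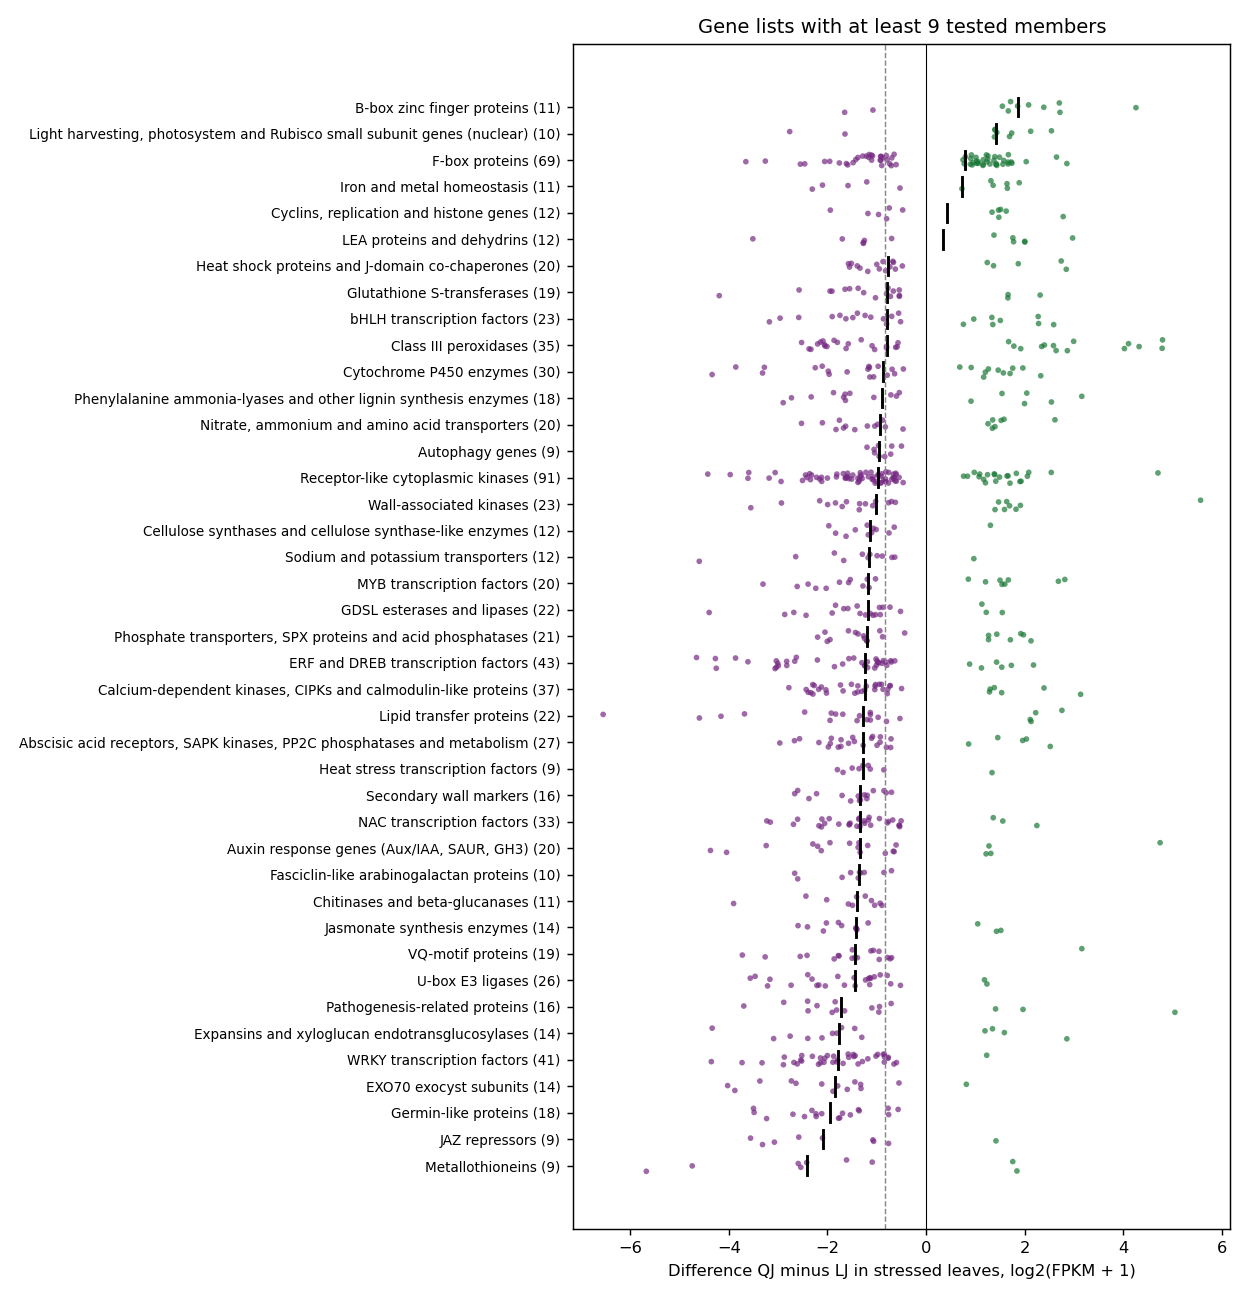
Difference QJ minus LJ in stressed leaves, log2(FPKM + 1), for each tested member (points) of the gene lists with at least 9 tested members, whose number stands in brackets. Short bars are list medians, from B-box proteins at 1.86 down to metallothioneins at -2.42, and the dashed line is the median of all tested genes at -0.82.

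Jasmonate, a lipid-derived hormone of wounding and stress, is made from linolenic acid by lipoxygenases, allene oxide synthases and OPR reductases, and JAZ proteins repress its responses while being induced by it. Of 14 genes grouped with synthesis by gene name or description, 11 were lower and 3 higher in QJ (median -1.42). Whether each of them acts in jasmonate synthesis itself was not tested. The lipoxygenase Lox2:Os:1 (Os08g0508800) read 239, 243 and 251 FPKM in QJ and 653, 644 and 654 FPKM in LJ (log2 difference -1.41, SE 0.0241, adjusted p = 5.3e-10), and OsLOX1 (Os03g0700700) 83.6, 87.8 and 84.8 and 523, 517 and 523 FPKM (log2 difference -2.60, SE 0.026, adjusted p = 7.01e-11). In both genes all LJ libraries were above all QJ libraries. The lipoxygenase OsLOX8 (Os08g0509100) was 3.44-fold lower (163 ± 7.35 against 561 ± 3.1 FPKM). The allene oxide synthases AOS1 (Os03g0767000) and AOS2 (Os03g0225900) averaged 53.8 ± 1.56 and 64.1 ± 1.67 FPKM in QJ against 221 ± 2.33 and 212 ± 8.23 FPKM in LJ. The 3 higher members were OsJAR2 (Os01g0221100), HPL3 (Os02g0110200) and a second lipoxygenase entered as OsLOX1 (Os02g0194700), at 21.8 ± 0.217, 2.79 ± 0.37 and 5.29 ± 0.346 FPKM in QJ and 6.99 ± 1.06, 0.837 ± 0.278 and 1.35 ± 0.319 FPKM in LJ. HPL3, a hydroperoxide lyase, draws on the same substrate pool as jasmonate synthesis. JAZ repressors were lower in 8 of 9 (median -2.10). OsJAZ4 (Os03g0181100) read 120.3, 112 and 115 FPKM in QJ and 999.9, 947 and 998 FPKM in LJ, 8.49-fold apart (log2 difference -3.08, SE 0.0349, adjusted p = 9.26e-11). OsJAZ2 (Os03g0180900) was 4.3-fold and OsJAZ5 (Os03g0402800) 2.11-fold lower. The 1 JAZ gene higher in QJ, OsJAZ (Os03g0396500), was at 1.77 ± 0.0252 FPKM there and 0.0367 ± 0.0306 FPKM in LJ.

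Abscisic acid is the main hormone of water and salt stress, sensed by receptors that inhibit PP2C phosphatases and so release SAPK kinases. Of 27 genes of this pathway 22 were lower and 5 higher in QJ (median -1.27). OSNCED3 (Os07g0154100), which makes the committed precursor of abscisic acid, read 51.3, 52.2 and 55.8 FPKM in QJ and 174, 178 and 182 FPKM in LJ, 3.35-fold apart (log2 difference -1.73, SE 0.0389, adjusted p = 2.3e-09). The phosphatases OsPP2C34 (Os03g0761100) and OsPP2C32 (Os03g0292100) were 2.98-fold and 3.97-fold lower in QJ (278 ± 3.06 against 828 ± 6.95 FPKM, and 129 ± 2.04 against 514 ± 16.7 FPKM). The kinase SAPK2 (Os07g0622000) was 2.12-fold lower (239 ± 4.34 against 507 ± 2.44 FPKM). Calcium decoders, counted as calcium-dependent kinases, CIPKs and calmodulin-like proteins, were lower in 31 and higher in 6 of 37 (median -1.24). The calmodulin-like OsCML31 (Os01g0955100) read 194, 193 and 168 FPKM in QJ and 907, 897 and 921 FPKM in LJ, 4.91-fold apart (log2 difference -2.29, SE 0.0528, adjusted p = 2.61e-09), and OsCML15 (Os05g0380900) was 2.73-fold lower in QJ. Auxin response genes were lower in 16 and higher in 4 of 20. OsSAUR2 (Os01g0768333) read 121, 97.7 and 98.5 FPKM in QJ and 936, 1037 and 1044 FPKM in LJ, the opposite direction from SAUR39 of the same family.

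Defence genes were mostly lower in QJ, with single members far higher. Chitinases and beta-glucanases, enzymes that attack fungal walls, were lower in all 11 tested (median -1.41). Cht2* (Os05g0399300) read 13.1, 14.2 and 15.4 FPKM in QJ and 224, 228 and 228 FPKM in LJ, 15.9-fold apart (log2 difference -3.90, SE 0.0556, adjusted p = 2.4e-10), and Cht1*(Chi1) (Os06g0726200) was 2.66-fold lower in QJ (217 ± 9.13 against 576 ± 4.77 FPKM). Of 16 pathogenesis-related genes 13 were lower and 3 higher, OsPR1b (Os01g0382000) among the latter. OsPR4 (Os11g0592200) was at 183, 183 and 173 FPKM in QJ and 965, 951 and 942 FPKM in LJ, 5.3-fold lower in QJ, and its neighbour OsPR4c (Os11g0592000) 3.75-fold lower (283 ± 5.2 against 1060.2 ± 10.6 FPKM). U-box ubiquitin ligases were lower in 24 of 26 and EXO70 subunits of the exocyst, which tethers secretory vesicles, in 13 of 14. OsEXO70FX15 (Os01g0905200) read 3.99, 3.15 and 3.09 FPKM in QJ and 73.6, 71.2 and 66.7 FPKM in LJ (log2 difference -4.02, SE 0.0894, adjusted p = 2.13e-09), and the ubiquitin ligase OsPUB39 (Os06g0248500) 24.2, 22.8 and 27.1 and 298, 299 and 311 FPKM (log2 difference -3.57, SE 0.0588, adjusted p = 4.36e-10). Receptor-like cytoplasmic kinases, the largest list, were lower in 69 and higher in 22 of 91, with OsRLCK63 (Os02g0165100) 12.4-fold lower (36.5 ± 1.13 against 453 ± 7.11 FPKM). Wall-associated kinases were lower in 15 and higher in 8 of 23, a share at the background. WAK112 (Os10g0180800), the most abundant, was 2.66-fold higher in QJ (233 ± 6.44 against 87.5 ± 1.77 FPKM).

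The cysteine-rich receptor-like protein OsRMC (Os04g0659300), known from root growth and from responses to jasmonate and salt, was among the most abundant genes of stressed LJ. It read 317, 307 and 329 FPKM in the QJ libraries and 5067, 5146 and 4962 FPKM in the LJ libraries. The LJ values lay 15.9-fold above those of QJ by the means (log2 difference -3.99, SE 0.0274, adjusted p = 3.08e-11). SGR (Os09g0532000), which removes magnesium from chlorophyll as leaves lose their green, read 149.9, 149 and 153 FPKM in QJ and 397, 413 and 392 FPKM in LJ, 2.66-fold apart (log2 difference -1.40, SE 0.0273, adjusted p = 1.04e-09).

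Among enzymes that act on phenolics and hydrogen peroxide, laccases and glutathione S-transferases were more often lower in QJ than all tested genes (65.4%). The counts of peroxidases, lignin synthesis enzymes and cytochrome P450 genes were close to that background share. Class III peroxidases were lower in 21 and higher in 14 of 35, but their summed level was higher in QJ, 1724 to 1771 FPKM against 592 to 607 FPKM in LJ. POX22.3, prx59 (Os04g0688100) and prx62 (Os04g0688500) held the highest levels, all higher in QJ. The gene prx62 read 229, 230.3 and 233 FPKM in QJ and 46.2, 44.1 and 43.3 FPKM in LJ, 5.18-fold apart (log2 difference 2.35, SE 0.0325, adjusted p = 2.13e-10), and prx59 was 3.83-fold higher. Laccases, copper enzymes that oxidize lignin precursors, went the other way in all 5 tested members of 7 listed. OsLAC29 (Os12g0258700) read 18.4, 17.1 and 19.6 FPKM in QJ and 471, 465 and 465 FPKM in LJ, 25.4-fold apart (log2 difference -4.60, SE 0.0468, adjusted p = 7.02e-11). OsLAC28 (Os12g0257600) was 13.3-fold lower in QJ (7.49 ± 0.229 against 99.5 ± 1.61 FPKM), and OsLAC10 (Os02g0749700) averaged 0.487 ± 0.0208 FPKM in QJ and 21.2 ± 0.854 FPKM in LJ. Lignin synthesis enzymes were lower in 12 and higher in 6 of 18. 4CL5 (Os08g0448000), a 4-coumarate-CoA ligase, was 7.54-fold lower in QJ (68.2 ± 2.36 against 514 ± 4.76 FPKM), whereas OsCAD8B (Os09g0400000), a cinnamyl alcohol dehydrogenase, was 4.19-fold higher (220.1 ± 7.65 against 52.5 ± 1.01 FPKM). Of 30 cytochrome P450 genes 18 were lower, 11 higher and 1 did not pass. CYP76M2 (Os08g0508000) read 18.5, 18 and 18.7 FPKM in QJ and 283, 278 and 281 FPKM in LJ (log2 difference -3.86, SE 0.031, adjusted p = 4.7e-11). Glutathione S-transferases, which conjugate toxic compounds, were lower in 16 of 19, but the most abundant in QJ, OsGSTU24 (Os10g0528100), was 3.22-fold higher there (117 ± 2.09 against 36.5 ± 2.46 FPKM). Their median difference was -0.80, close to the -0.82 of all tested genes. After median centring 14 were lower and 2 did not pass. Given the authors' cut at 1 and the median shift of 0.354, their count of lower members is partly set by the selection.

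Photosynthesis genes and B-box factors were mostly higher in QJ. Of 10 nuclear genes for the Rubisco small subunit, light harvesting and the photosystems, 8 were higher and 2 lower in QJ (median 1.42). The Rubisco small subunit gene RBCS (Os12g0274700) read 532, 514 and 524 FPKM in QJ and 90.6, 91.2 and 84.5 FPKM in LJ, 5.89-fold apart (log2 difference 2.55, SE 0.034, adjusted p = 1.77e-10). All QJ libraries were above all LJ libraries. PsaG (Os09g0481200) and PsbY (Os08g0119800), subunits of photosystem I and II, were 2.66-fold and 3.37-fold higher in QJ. The exceptions were Lhcb1.1 (Os01g0720500) (6.47 ± 0.573 against 22.4 ± 2.56 FPKM) and RbcS1 (Os02g0152400) (1.13 ± 0.206 against 13.5 ± 0.76 FPKM), both at low levels for this list. The list's summed level ranged from 1822 to 1864 FPKM in QJ and from 575 to 582 FPKM in LJ, so mesophyll genes of a leaf were present in every library. B-box proteins, which regulate light responses and flowering, were higher in 9 of 11 (median 1.86). OsBBX17 (Os06g0264200) read 154, 149.9 and 158 FPKM in QJ and 7.77, 7.64 and 5.99 FPKM in LJ, 21.6-fold apart (log2 difference 4.26, SE 0.0871, adjusted p = 1.36e-09). OsBBX12 (Os04g0497700) and OsBBX19 (Os06g0298200) were 3.25-fold and 3.36-fold higher, and the 2 lower members were OsBBX6 (Os02g0646200) (15.9 ± 1.01 against 52.1 ± 1.71 FPKM) and OsBBX21 (Os06g0661200) (0.217 ± 0.0751 against 1.6 ± 0.595 FPKM).

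All 7 listed genes with an organelle-style identifier were lower in QJ, a group noticed after their values had been seen. The log2 differences of psbA, psaA, psaB and petA were -0.95, -0.75, -0.73 and -0.53. Given the median shift of 0.354 and the authors' cut at 1, differences this small could mostly be listed only on the lower side. Their shared direction is therefore partly set by the selection. The genes infA, nad6 and atpI averaged under 1 FPKM in QJ. The photosystem genes psbA, psaA and psaB of the chloroplast averaged 23.2 ± 2.22, 6.63 ± 0.276 and 4.46 ± 0.41 FPKM in QJ and 45.7 ± 0.619, 11.8 ± 0.697 and 8.07 ± 0.796 FPKM in LJ. Levels of such transcripts depend on how RNA was selected for the libraries, a step the sources used here do not describe. The list of cyclins, replication and histone genes was even, at 6 higher and 6 lower. Its 3 most abundant members, all histone genes, were higher in QJ. H4 (Os10g0539500) read 276, 278 and 257 FPKM in QJ and 95.8, 93.7 and 101 FPKM in LJ, 2.79-fold apart, and the H2B genes H2B.5 (Os01g0153300) and H2B.10 (Os01g0152300) were 2.82-fold and 2.58-fold higher.

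**Figure D3:**
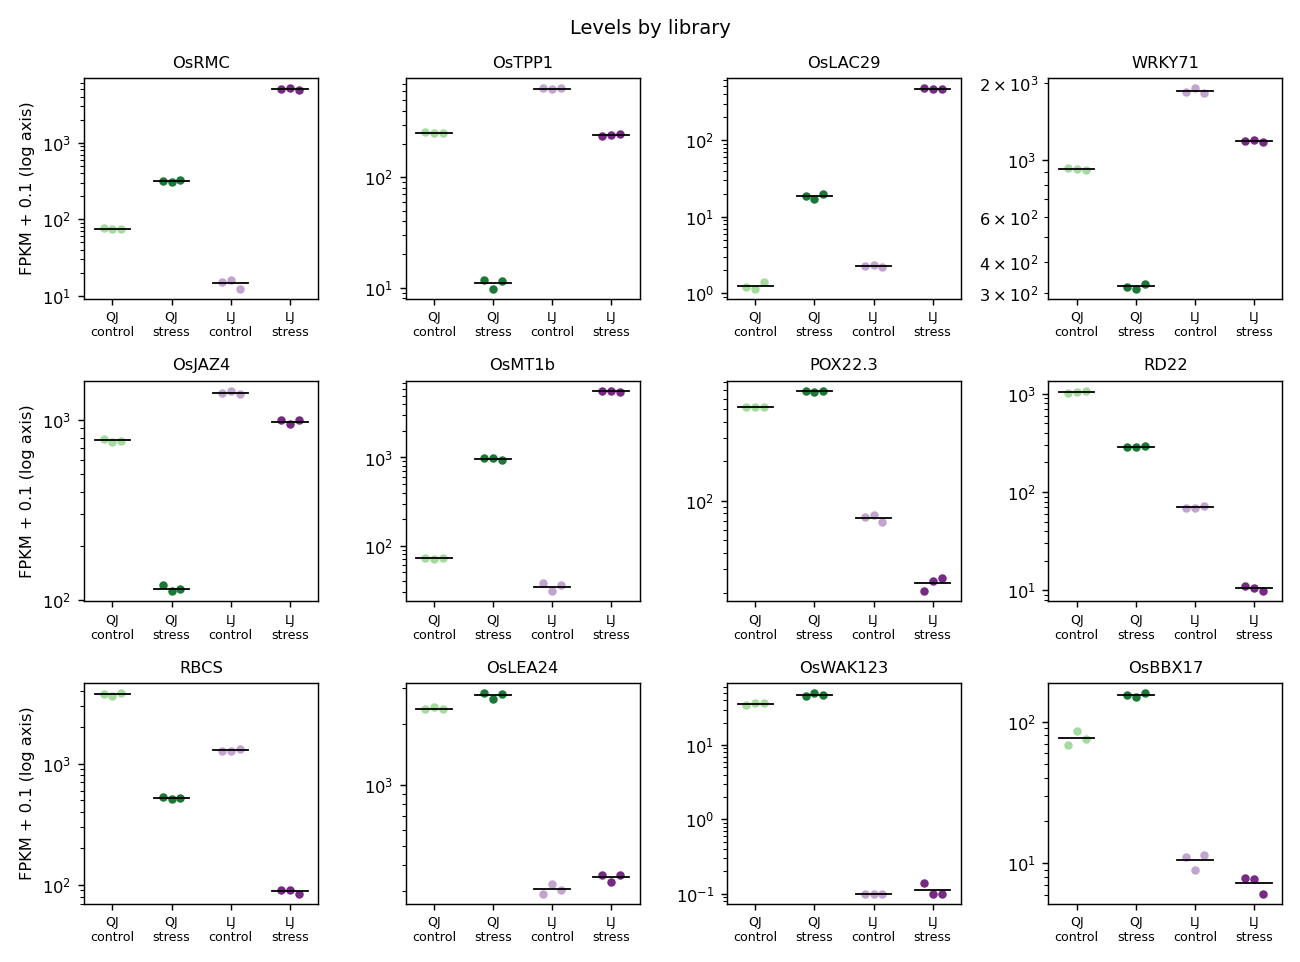
Level of 12 genes in each of the 12 libraries, FPKM with 0.1 added on a log axis whose range differs between panels. Points are libraries, bars are means of 3, and the stressed QJ and stressed LJ libraries are separate in every panel, with OsRMC reaching 5058 ± 92.2 FPKM in stressed LJ.

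Protective proteins did not share a direction. LEA proteins, which protect cells from drying, were 6 higher and 6 lower in 12. OsLEA9 (Os01g0314800) read 2771, 2691 and 2696 FPKM in QJ and 6656, 6345 and 6662 FPKM in LJ, 2.41-fold lower in QJ (log2 difference -1.27, SE 0.0234, adjusted p = 7.85e-10), while OsLEA24 (Os03g0655400) read 2819.7, 2644 and 2801 and 360.4, 330.4 and 358 FPKM, 7.88-fold higher (log2 difference 2.98, SE 0.0395, adjusted p = 1.74e-10). The stress marker OsLEA3-1 (Os05g0542500) was 3.25-fold lower (229 ± 14 against 746 ± 23.1 FPKM). Metallothioneins were lower in 7 and higher in 2 of 9. The most abundant of them, OsMT3a (Os01g0200700), read 11675, 11478 and 11256 FPKM in QJ and 3369, 3446 and 3332 FPKM in LJ, 3.39-fold higher in QJ (log2 difference 1.76, SE 0.0195, adjusted p = 9.01e-11), and OsMT1b (Os03g0288000) read 985, 986 and 929 and 5615, 5692 and 5569 FPKM, 5.82-fold lower (log2 difference -2.54, SE 0.0257, adjusted p = 7.02e-11). Summed over the family the varieties were close, at 14968 to 15428 FPKM in QJ and 15410.1 to 15690.3 FPKM in LJ, since OsMT3a made up most of the QJ sum. Trehalose-6-phosphate phosphatases, which finish trehalose synthesis, were lower in all 4 listed. OsTPP1 (Os02g0661100), known to raise salt and cold tolerance when overexpressed, read 11.6, 9.67 and 11.4 FPKM in QJ and 239, 241 and 247 FPKM in LJ, 22.2-fold apart (log2 difference -4.36, SE 0.0655, adjusted p = 2.97e-10).

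Genes for ions, water and nutrients are given by family, beside the 65.4% of all tested genes that were lower in QJ. Sodium and potassium transporters were lower in 11 of 12 tested. NHX1 (Os07g0666900), a vacuolar sodium/proton antiporter, read 16.7, 14.6 and 17.1 FPKM in QJ and 36.1, 38 and 38.4 FPKM in LJ, 2.33-fold apart (log2 difference -1.17, SE 0.0673, adjusted p = 5.91e-07), and the potassium transporter OsHAK27 (Os03g0574900) was 2.01-fold lower in QJ. SKC1 (Os01g0307500), which retrieves sodium from the xylem, was under the filter, with 0, 0.06 and 0.03 FPKM in QJ and 0.25, 0.34 and 0.1 FPKM in LJ. Aquaporins, channels for water, were higher in 4 of 5. The aquaporin OsPIP2 (Os09g0541000) read 339, 332 and 328 FPKM in QJ and 88.3, 86.3 and 90.5 FPKM in LJ, 3.77-fold apart (log2 difference 1.90, SE 0.0278, adjusted p = 2.59e-10), and OsTIP4 (Os05g0231700) was 2.8-fold higher. Iron genes were 6 higher and 5 lower in 11 tested of 14 listed. The ferritins OsFER1 (Os11g0106700) and FER2 (Os12g0106000), which store iron, were 4.33-fold and 4.99-fold lower in QJ (74.2 ± 3.27 against 321 ± 3.7 FPKM, and 83.7 ± 5.08 against 418 ± 6.5 FPKM). Their identifiers place both ferritins near the starts of chromosomes 11 and 12, where the counting of gene pairs is uncertain, as described below. The iron transporter OsIRT2 (Os03g0667300), the mugineic acid synthesis gene OsDMAS1 (Os03g0237100) and the regulator OsIRO3 (Os03g0379300) were higher, at 8.11 ± 0.402, 141 ± 7.07 and 50.0 ± 1.29 FPKM in QJ and 1.92 ± 0.215, 54.3 ± 2.14 and 19.5 ± 0.488 FPKM in LJ. Of phosphate genes 14 were lower and 7 higher in 21, with the phosphate transporter PT8 (Os10g0444700) 3.87-fold lower (183 ± 5.38 against 709 ± 11.4 FPKM). Nitrate, ammonium and amino acid transporters were lower in 13 and higher in 7 of 20. The counts of these transporters and of the phosphate genes were close to the background share. SWEET sugar exporters were lower in 6 of 8, but OsSWEET1b (Os05g0426000) was 3.74-fold higher in QJ (64.7 ± 3.42 against 17.3 ± 1.87 FPKM).

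Genes of wall growth and markers of other tissues were lower in QJ without exception in several lists. All 10 tested fasciclin-like arabinogalactan genes and 11 of 12 cellulose synthase genes were lower. Expansin and xyloglucan endotransglucosylase genes were lower in 10 of 14, close to the 65.4% of all tested genes. OsXTH10 (Os06g0697000), a wall-remodelling enzyme, read 33.6, 37 and 29.4 FPKM in QJ and 219, 237 and 234 FPKM in LJ, 6.9-fold apart (log2 difference -2.76, SE 0.077, adjusted p = 7.51e-09). OsCesA6 (Os07g0252400), of the primary wall, was 2.82-fold lower (14.3 ± 0.805 against 40.4 ± 2.48 FPKM). Markers of secondary walls, a list whose members are mostly the fasciclin-like genes already counted, were lower in all 16 tested of 22 listed, and summed to 195 to 205 FPKM in QJ and 471 to 580.4 FPKM in LJ. The xylan synthesis gene OsIRX10 (Os01g0926700) was 5.57-fold lower (10.1 ± 1.48 against 56.1 ± 2.49 FPKM). Meristem and inflorescence markers, 13 listed and 7 tested, were all lower in QJ where tested, with sums of 57.8 to 60.5 FPKM in QJ and 191 to 197 FPKM in LJ. MADS14 (Os03g0752800), a flowering gene, made up most of these sums, at 43.9, 44.2 and 40.8 FPKM in QJ and 157, 151 and 153 FPKM in LJ (log2 difference -1.82, SE 0.0395, adjusted p = 1.89e-09). The meristem gene OSH1 (Os03g0727000) was listed at 0 in all 3 QJ libraries and averaged 1.36 ± 0.0346 FPKM in LJ, and OsMADS7 (Os08g0531700), a floral organ gene, averaged 0.0267 ± 0.0462 and 0.967 ± 0.351 FPKM. Of anther markers 1 of 4 listed was tested, and the list summed to 0.2 to 0.34 FPKM in QJ and 4.84 to 5.83 FPKM in LJ, and OSC6 (Os11g0582500) was listed at 0 in QJ while averaging 0.597 ± 0.254 FPKM in LJ. In control leaves OSC6 was at 150.1, 157 and 155 FPKM in LJ, so its stressed level was near 0 by comparison. Several of these gaps were wider in control leaves. Control medians were -2.65 for fasciclin-like, -2.37 for cellulose synthase, -2.69 for secondary wall and -3.43 for meristem and inflorescence genes. Under stress they were -1.36, -1.14, -1.34 and -1.26. The control medians rest on 14, 10, 21 and 11 genes and the stress medians on 10, 12, 16 and 7. Since the members differ, the sizes of these medians do not compare directly. Of members tested for a change of the gap, 9 of 10, 7 of 10, 14 of 16 and 7 of 7 were more positive under stress. In bulk leaves, fewer cells of a type and less RNA per cell cannot be told apart, and the part of these markers in the differences above was not tested.

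Genes at exactly 0 in one variety were found on both sides. In all 3 stressed QJ libraries 200 genes were listed at 0, 59 of them with at least 1 FPKM and 12 with at least 5 FPKM in LJ. In all 3 stressed LJ libraries 138 genes were listed at 0, 86 of them with at least 1 FPKM and 36 with at least 5 FPKM in QJ. An exact 0 in FPKM can be a failed estimate, so no fold is given. Os01g0952900 was listed at 0 in stressed QJ and at 376, 379.8 and 362 FPKM in stressed LJ, although QJ control leaves had 471, 452 and 474 FPKM. Os12g0117700 was at 118, 103 and 123 FPKM in stressed QJ and listed at 0 in LJ both under stress and in the controls, where QJ had 161, 182 and 196 FPKM. The named gene with the highest level on this side, Sc-j (Os03g0247300), read 40.8, 39.7 and 40.4 FPKM in QJ. On the other side that was OsHyPRP02 (Os02g0662100), at 7.1, 8.51 and 7.32 FPKM in LJ, followed by OsVSP2 (Os05g0190500) at 6.7, 7.8 and 7.86 FPKM. Of the 59 genes at 0 in stressed QJ, 48 had values in the QJ controls, and 25 of these were at 0 there too. Of the 86 at 0 in stressed LJ, 79 had values in the LJ controls and 56 were at 0 there too.

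Position, which the selection did not use, was read from the gene identifiers. On chromosomes 1 to 5 between 69.2% and 70.9% of the passing genes were lower in QJ. The share was 55.1% on chromosome 11 and 46.6% on chromosome 12, the 1 chromosome on which most passing genes were higher in QJ. The short arms of chromosomes 11 and 12 are known to share a recent duplication with near-identical gene pairs, and the sources used here do not say how reads shared by such copies were counted. OsLTP1.9 on chromosome 11 and OsLTP1.18 (Os12g0115100) on chromosome 12 differed in opposite directions, with OsLTP1.18 at 1514, 1478 and 1479 FPKM in QJ and 223, 221 and 214 FPKM in LJ. Values of such pairs are uncertain for that reason. Neighbouring listed genes with identifiers at most 300 apart formed 222 runs of at least 3 genes lower in QJ and 49 runs higher. Of all passing genes 65.8% were lower and 34.2% higher, which by itself makes runs of lower genes more frequent. Whether genes of one direction cluster was not tested. With identifiers at most 100 apart only 9 runs were left, so the number of runs depends on that setting. The longest lower run held 9 germin-like genes on chromosome 8, of a family of secreted proteins, some with oxalate oxidase or superoxide dismutase activity. Germin-like genes were lower in all 18 tested (median -1.94). Within the run GLP8-7 (Os08g0189600) had the highest level, 43.5, 46.6 and 43.9 FPKM in QJ and 214, 207 and 218 FPKM in LJ, 4.77-fold apart (log2 difference -2.23, SE 0.0371, adjusted p = 4.55e-10). GLP8-1 (Os08g0188900) was listed at 0 in QJ and at 4.04, 2.85 and 5.33 FPKM in LJ, and GLP8-6 (Os08g0189500) differed least, 1.59-fold (3.89 ± 0.79 against 6.2 ± 0.882 FPKM). Members of such a cluster are close copies, which carries the same counting uncertainty, and they are not independent replicates of a direction. A run of 5 genes on chromosome 9, OsCAD8A to OsCAD8D with 1 unnamed gene between them, was higher in QJ.

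**Figure D4:**
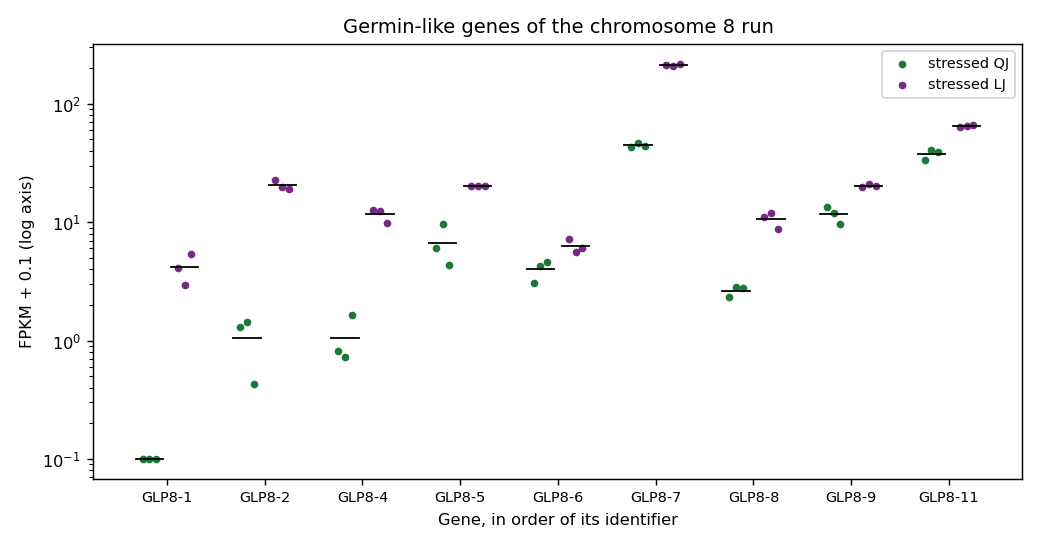
Level of the 9 germin-like genes of the chromosome 8 run in each stressed library, FPKM with 0.1 added on a log axis, 3 points and their mean per gene and variety. In each gene the 3 LJ libraries are above the 3 QJ libraries, from GLP8-1, at 0 in QJ, to GLP8-7, at 213 ± 5.42 FPKM in LJ.

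Control leaves gave the same contrast in libraries that the selection of these genes had not used. Control values in all 6 control libraries could be had for 3756 of the listed genes that passed the filter there, and 96.9% of them passed between the control varieties, 65.7% lower and 31.3% higher in QJ. Over all 7109 genes tested with control values, those absent from the stressed table included, the shares were 95.0%, 63.2% and 31.7%. These values exist only for genes that the authors selected in other tables, so that share is not an independent rate. Of the 3219 genes passing in both conditions, 3002 (93.3%) had the same direction, 947 higher and 2055 lower in QJ. Of the 6894 genes, 3880 were also in the authors' table for control leaves, which is 56.3% of the genes listed under stress and 49.5% of the 7844 listed for controls. OsLEA24 differed by 2.98 under stress and by 2.95 in controls, and OSNCED3 by -1.73 and -1.76. OsWAK123 was at 34.2, 36.6 and 36.3 FPKM in control QJ and listed at 0 in control LJ, and POX22.3 at 521, 517 and 518 and 75.2, 77.6 and 68.4 FPKM. B-box proteins were higher in QJ in all 7 with control values (median 1.54). WRKY factors were lower in 22 of 24 control values (median -1.10), and peroxidases in 24 of 37.

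A test of the difference itself, an interaction term over all 12 libraries, was made for 4058 listed genes, of which 68.5% passed, against 66.4% of all 5170 genes tested with values in all 12 libraries. In 1105 genes QJ minus LJ was more negative under stress than in controls, and in 1673 it was more positive. That balance depends on scaling, since after median centring of each library 1514 genes were more negative and 1126 more positive. Of the 3219 genes above, 217 changed direction, 179 from higher in control QJ to lower in stressed QJ and 38 the other way. After median centring 290 genes did. OsRMC was at 76.5, 74.4 and 75.1 FPKM in control QJ and 15.1, 16.2 and 12.2 FPKM in control LJ, higher in QJ there (2.31) and lower under stress (-3.99), a change of -6.30 (SE 0.0998, adjusted p = 7.07e-14). Its 4 groups did not overlap. OsWRKY69 (Os08g0386200) was 1.80 apart in controls, at 549, 546 and 549 FPKM in QJ and 157, 162 and 153 FPKM in LJ, and -2.30 under stress, at 70.4, 67.4 and 76.1 and 352, 360.1 and 355 FPKM. The change was -4.10 (SE 0.0531, adjusted p = 1.66e-14). The oxalate oxidase Osoxo4 (Os03g0694000), whose identifier is next to that of OsOxO3, read 14.2, 15.2 and 17.3 FPKM in control QJ and 1.25, 1.44 and 1.34 FPKM in control LJ, and 102, 103 and 107 and 331, 331 and 324 FPKM under stress. Its control libraries were higher in QJ and its stressed libraries lower.

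Among the 38 genes that were higher in stressed QJ but lower in control QJ were a vacuolar invertase, a remorin and an AWPM-19 family membrane protein. They are 3 of the 5 genes with a name that were largest by the smaller of both differences, and some genes with no name were larger. The invertase OSINV3 (Os02g0106100) read 0.84, 0.92 and 0.69 FPKM in control QJ and 5.4, 5.7 and 5.88 FPKM in control LJ, then 6.66, 5.73 and 6.23 and 2.44, 2.26 and 2.53 FPKM under stress. QJ was the lower variety in controls and the higher one under stress, without overlap in either. AWPM-19 (Os05g0381400) read 0, 0.21 and 0.21 and 1.82, 1.18 and 1.53 FPKM in controls and 14.2, 16.9 and 18.1 and 2.57, 2.77 and 2.67 FPKM under stress. OsREM1.1 (Os02g0824500), a remorin of the plasma membrane, averaged 0.303 ± 0.114 and 1.88 ± 0.401 FPKM in controls and 13.2 ± 0.299 and 3.57 ± 0.231 FPKM under stress. Of the 3619 genes tested in stressed leaves and for the gap change, 1086 were more negative and 1372 more positive under stress. Photosynthesis genes were 5 higher and 2 lower in 8 control values, and of 8 tested for the gap change 7 were more positive and 0 more negative. Pathogenesis-related genes were 6 higher and 4 lower in 10 control values, and of 10 tested 6 were more negative and 2 more positive. OsPR4 went from 0.86 in controls to -2.40 under stress. Cht2* and OsMT1b also changed sign, from 1.21 and 1.04 to -3.90 and -2.54.

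**Figure D5:**
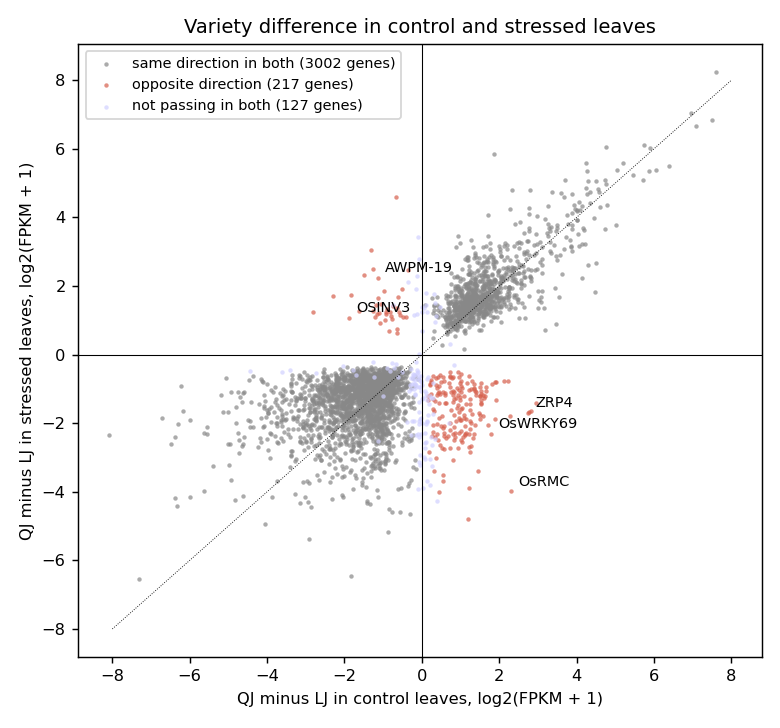
Difference QJ minus LJ in control leaves (horizontal axis) and stressed leaves (vertical axis), log2(FPKM + 1), for listed genes with both values. The dotted line marks equal differences, grey points are the 3002 genes with the same direction in both conditions, red points the 217 that changed direction, with OsRMC going from 2.31 to -3.99.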

How the data were processed

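Libraries were made from total RNA of leaves and sequenced on a NovaSeq X Plus, per the labels. The deposited tables give FPKM per gene and library, computed by the authors, per the file headers. They also give the authors' fold change as a ratio, its log2 value, and a p-value with its adjusted form, per the file headers. The aligner, genome build, read counting and the test behind the p-values are not stated in the sources used here. In the table of stressed leaves no deposited adjusted p-value was above 0.05 and no deposited log2 fold change was nearer to 0 than 1 or -1, so only genes selected on these libraries are listed.

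Columns were matched to samples by title. Sample descriptions repeat the name of replicate 1 for the stressed QJ and the control QJ samples and were not used. Where a library's value for a gene stood in more than 1 table, 0 of 31572 such values differed, which cannot decide between headers and table names. Genes that reached 1 FPKM in 3 or more libraries of a fit were tested on log2(FPKM + 1) with limma 3.58.1 in R 4.3.3, with a trended prior, two-sided and adjusted by Benjamini-Hochberg over all genes of the fit, passing at an adjusted p under 0.05. Folds are ratios of group means, given where the lower mean is at least 1 FPKM. Control leaves were fitted in the same way, and the change of the variety gap as an interaction over 12 libraries. No paired analysis was used as the main one, since same-numbered libraries did not vary together.

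The genes, the 47 lists and the tests were chosen with earlier results of these data known. Name stems of the lists were corrected after gene names and direction counts had been seen. Named genes follow a rule that takes the 10 largest differences each way, up to 3 members with the highest mean FPKM of each list with at least 5 tested members, up to 5 genes each way at 0 in one variety, up to 5 each way of opposite direction in control leaves, 16 fixed stress genes (12 listed) and the longest runs. Further members of small families, among them AOS1, OsJAR2, HPL3, OsIRT2, OsBBX6 and OSH1, were added after values were seen. Python 3.11.15, pandas 2.3.3, numpy 2.4.6 and matplotlib 3.10.9 were used. On simulated data with planted differences the comparison of stressed leaves recovered 92.0% of those of 1 and 56.0% of those of 0.5 on the log2 scale, with 1.33% false calls. For the interaction the shares were 89.0% and 58.0%, with 5.26% false calls. In these simulations 150 of 5701 genes passed between stressed leaves and 342 of 4872 for the interaction. In the deposited data 99.4% and 66.4% of tested genes passed. With so few passing genes the adjustment was stricter in the simulations, so their shares do not carry over to the deposited data.

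Gene identifiers could not be matched to the sequence tables at hand, so no sequence or coordinate is shown, and chromosomes were read from the identifiers.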

Additional observations from a re-analysis of the deposited data

Results flagged for a closer look

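In 36 named genes the QJ minus LJ difference changed between control and stressed leaves, by the interaction test in limma (adjusted p at most 9.73e-07), and either turned sign (24 genes) or changed by at least 3 on the log2 scale (12 genes). None of the 36 changes turned sign under median centring, which moved none by more than 0.298. The genes were named with these libraries in view, and causes were not tested. All changes below are log2 differences, stress minus control.

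Of those that turned sign, most were higher in control QJ and lower in stressed QJ. The naming rule took up to 5 genes each way for turning sign, so this balance is partly set by the rule. Over all listed genes passing in both conditions, 179 turned this way and 38 the other. OsRMC changed by -6.30 and Sci1 by -5.97. Among defence genes Cht2* changed by -5.12, OsPR4 by -3.26, OsPR4c by -2.91 and Cht1*(Chi1) by -1.86. Osoxo4 (Os03g0694000) changed by -4.47. The transcription factor OsWRKY69 changed by -4.10. OsEnS-107 (Os07g0529000), at 7.82 ± 0.786 FPKM in control QJ and 0.807 ± 0.0666 FPKM in control LJ, stood at 163 ± 6.58 and 564 ± 7.8 FPKM under stress, a change of -4.07. ZRP4 (Os09g0344500), named after a maize O-methyltransferase, was at 35.7 ± 2.22 and 4.52 ± 0.964 FPKM in controls and 30.1 ± 1.06 and 99.9 ± 2.21 FPKM under stress, a change of -4.44. The metallothioneins OsMT1b and MT1A (Os11g0704500) changed by -3.58 and -1.54, and OsLEA3-1 by -3.17. In signalling, OsSAUR17 (Os03g0660500) changed by -3.45, OsCML31 by -2.87, OsCML15 by -2.68 and OsPP2C32 by -2.72. The cytochrome P450 CYP71Z2 (Os07g0217600) changed by -1.86 and the purple acid phosphatase OsPAP26 (Os06g0643900) by -1.09.

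The other direction was seen in AWPM-19, with a change of 3.37, OSINV3 with 2.95, OsREM1.1 with 2.78, the ubiquitin ligase OsPUB28 (Os01g0901000) with 2.34 and OsATL12 (Os06g0228500), of the ATL family of RING proteins, with 2.34. OsPUB28 was at 1.87 ± 0.332 FPKM in control QJ and 5.35 ± 0.41 FPKM in control LJ, and at 5.17 ± 0.97 and 1.72 ± 0.491 FPKM under stress.

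The other genes had no opposite difference that passed in control leaves, some of them because their control levels were under 1 FPKM. One of them, OsERF#133, went in control leaves from -0.31 to 0.16 after median centring (adjusted p = 0.0138 in limma), an opposite difference under that setting. OsUCL35 changed by -5.15, OsCHX15 by -4.77, OsOxO3 by -4.62, CYP76M2 by -4.42, OsERF#133 by -4.35 and OsGLYI5 by -4.11. The laccases OsLAC29, OsLAC28 and OsLAC10 changed by -4.03, -3.70 and -3.34, and OsTPP1 by -3.03. The anther and floral markers OSC6 and OsMADS7, at 154 ± 3.35 and 38.5 ± 1.69 FPKM in control LJ but under 1 FPKM in all stressed means, changed by 6.56 and 4.38.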

How the results depend on the processing

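The 182 tested named genes kept their direction under each other setting tried, apart from those with no value under the 5 FPKM filter (178 had one) and in the joint fit (120 had one). A threshold of 1 on the log2 scale lowered the passing genes to 3175 and those lower in QJ to 1870, and 27 of 182 named genes then no longer passed. A filter of at least 5 FPKM left 1260 genes higher in QJ, and a joint fit, limited to genes with values in all 12 libraries, left 1128. With the name stems of the lists as first written, which made only 34 lists, 23 lists had more members lower in QJ. Taking a mean under 0.1 FPKM in place of exact zeros gave 620 genes in stressed QJ and 296 in stressed LJ, and identifiers at most 100 apart left 9 runs. The stems, the run setting, the scaling of the lists and the fit of all genes with stressed values were chosen after seeing the data.

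Leaving out 1 library at a time gave 5720 to 5765 passing genes, 1936 to 1994 higher and 3727 to 3819 lower in QJ. These exceed the main counts because the filter then asked for 2 of the 5 libraries, a choice made after a first run. For the controls such fits gave 3001 to 3023 genes of the same and 214 to 228 of the opposite direction, and for the gap change 1032 to 1098 more negative and 1426 to 1642 more positive. Replicate numbers gave no sign of pairing, with correlations of 0.0117, -0.0291 and -0.00462 between same-numbered stressed libraries. With a replicate block 5638 genes passed, 1923 higher and 3715 lower, with 3003 and 220 genes of the same and opposite direction in controls and 1097 and 1686 gap changes. Depth is unknown, so genes under 1 FPKM cannot be judged.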

Other observations

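F-box proteins, the part of SCF ubiquitin ligases that picks targets, were more often higher than lower in QJ, unlike most lists, but not in summed level. Of 69 tested, 37 were higher and 32 lower in QJ (median 0.80, with the same counts after median centring), while the list summed to 1022 to 1042 FPKM in QJ and 1922 to 1972 FPKM in LJ. The 3 most abundant members were all lower in QJ. OsFbox109 (Os02g0748300) read 146, 140.1 and 136 FPKM in QJ and 598, 569 and 598 FPKM in LJ (log2 difference -2.06, SE 0.0334, adjusted p = 4.07e-10), and OsFbox176 (Os03g0802200) was 2.69-fold lower (132 ± 8.56 against 356 ± 5.04 FPKM). Autophagy genes, which build the vesicles that carry cell contents to the vacuole, were lower in all 9 tested, with log2 differences from -1.20 to -0.50. Given the median shift of 0.354 and the authors' cut at 1, differences this small could mostly be listed only on the lower side. The shared direction of these 9 genes is therefore partly set by the selection. OsATG8c (Os08g0191600), which coats these vesicles, read 221, 241 and 226 FPKM in QJ and 372, 370.2 and 388 FPKM in LJ. Each LJ library was above each QJ library.

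GDSL esterases and lipases were lower in 19 and higher in 3 of 22, with OsGELP44 (Os02g0740400) at 0.12, 0.4 and 0.28 FPKM in QJ and 25.6, 24.7 and 26.6 FPKM in LJ. Lipid transfer proteins were lower in 17 of 22, but their summed level was higher in QJ, 2029 to 2088 FPKM against 1000.0 to 1012 FPKM, most of it OsLTP1.18.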
